A study of Mus musculus with 16 samples.

Results

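The genes described here encode nuclear subunits of respiratory complexes I, II and III and the assembly factors whose symbols share the same stem. Ndufa4 and its paralogue Ndufa4l2 match by symbol only and are counted in none of these roles. The set was chosen with earlier results of these data known, though no measured value entered its rule. All genes were taken by symbol (Ndufa, Ndufb, Ndufc, Ndufs and Ndufv followed by a number or suffix, Sdha to Sdhd, and Uqcr) from the probe sets annotated with exactly 1 gene. This gave 56 of the 20848 genes on the array, covered by 342 of its 241576 probe sets. By role they were 6 core subunits of complex I, 29 supernumerary subunits of complex I, 7 complex I assembly factors, Ndufa4 and its paralogue Ndufa4l2, the 4 subunits of complex II and 8 subunits of complex III. The set as a whole, with Ndufa4 and Ndufa4l2, is called the genes of complexes I to III below.

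The cells were resident peritoneal macrophages, the phagocytes of the abdominal cavity, from C57BL/6 mice. One genotype was wild type (WT) and the other lacked Ogr1 (KO), a proton-sensing G protein-coupled receptor, and no group carried any other labelled allele. Cells of each genotype were cultured for 24 h in RPMI 1640 with 10% fetal calf serum at pH 7.7 or at pH 6.7, and 4 arrays were made for each of the 4 groups, 16 arrays in all. The pH values are those of the sample names, while the treatment text gives 7.6 and 6.8 for the same conditions. The labels give neither the age nor the sex of the mice nor how many mice were pooled, and separate animals are named for none of the arrays. The p-values therefore measure the spread between these arrays, which may be technical. The transcript of the deleted gene was not analysed here, so the genotype labels were not checked against it.

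Complex I passes electrons from NADH to ubiquinone and pumps protons out of the mitochondrial matrix. Complex II passes electrons from succinate to the same ubiquinone pool and pumps none, and complex III passes them from reduced ubiquinone to cytochrome c. In macrophages these complexes also set how much superoxide mitochondria release, because electrons can run backwards from ubiquinone into complex I when much succinate is oxidised. Inflammatory activation of macrophages is known to lower respiration through these complexes, and alternative activation to depend on it.

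Promoters of many of these genes carry sites for nuclear respiratory factor 1 (NRF-1), for ETS factors and for YY1, which tie the nuclear subunits to mitochondrial biogenesis. Promoter windows of 300 bases, from 250 before to 50 after the transcription start, were found in the RefSeq table (GRCm38.p6) for 47 of the 56 genes. The windows printed here are those of the 3 genes with such an entry that passed the test in a comparison (Ndufa7, Ndufb11 and Ndufaf2) and that of Sdhb, a gene that did not pass and whose window holds both an NRF-1 and an ETS core. The Ndufa7 window is chr17:33824322-33824621 on the forward strand, 1 of 2 windows listed for this gene. The Ndufb11 window is chrX:20617570-20617869 on the reverse strand, the Ndufaf2 window chr13:108158576-108158875 on the reverse strand, and the Sdhb window chr4:140961021-140961320 on the forward strand. Each is written 5′ to 3′ in lower case, and capitals mark matches to the motifs searched.
Ndufa7: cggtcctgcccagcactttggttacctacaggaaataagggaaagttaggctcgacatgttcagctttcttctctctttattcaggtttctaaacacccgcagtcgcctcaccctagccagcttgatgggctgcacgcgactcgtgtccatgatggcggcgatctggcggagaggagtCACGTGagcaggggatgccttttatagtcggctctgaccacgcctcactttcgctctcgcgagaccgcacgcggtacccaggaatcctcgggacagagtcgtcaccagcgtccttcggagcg
Ndufb11: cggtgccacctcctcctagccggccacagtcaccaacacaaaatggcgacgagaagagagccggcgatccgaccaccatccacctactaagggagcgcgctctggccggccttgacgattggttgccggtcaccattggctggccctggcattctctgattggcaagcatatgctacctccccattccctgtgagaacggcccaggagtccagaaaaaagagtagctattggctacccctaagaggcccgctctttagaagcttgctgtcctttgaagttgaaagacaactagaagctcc
Ndufaf2: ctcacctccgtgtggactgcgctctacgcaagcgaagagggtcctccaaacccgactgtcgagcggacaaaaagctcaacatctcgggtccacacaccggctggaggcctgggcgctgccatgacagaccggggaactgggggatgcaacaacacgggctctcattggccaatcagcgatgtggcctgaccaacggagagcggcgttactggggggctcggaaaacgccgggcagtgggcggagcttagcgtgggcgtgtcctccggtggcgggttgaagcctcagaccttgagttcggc
Sdhb: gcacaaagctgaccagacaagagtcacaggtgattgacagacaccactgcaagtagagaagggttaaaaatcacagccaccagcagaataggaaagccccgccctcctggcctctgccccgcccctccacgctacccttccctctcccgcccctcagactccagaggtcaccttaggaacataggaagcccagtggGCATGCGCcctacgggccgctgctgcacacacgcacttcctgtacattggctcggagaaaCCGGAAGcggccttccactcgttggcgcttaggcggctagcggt
The motifs were searched on both strands as fixed letters. A gene was counted where any of its listed windows held the letters, so genes with more windows had more chances of a match. The NRF-1 core GCGCATGC was present for 8 of the 47 genes (17%) against 3.94% of the 17492 protein-coding genes with a window. The YY1 core AAGATGGC was present for 7 (14.9%) against 3.57%, and the ETS core CCGGAAG for 9 (19.1%) against 12.9%. At least 1 of these 3 was present for 22 genes (46.8%) against 18.7% of all genes. The E-box CACGTG, which several basic helix-loop-helix factors bind, was present for 2 genes (4.26%), Ndufa7 and Ndufv1, against 8.91% of all genes. The oestrogen-related receptor element TCAAGGTCA was present for 1 gene (2.13%), Sdhd, against 0.377%. None of these letters was found in the Ndufb11 and Ndufaf2 windows shown. A match to letters is not a site in use, and the responses to pH with and without a match are given as a description. The median log2 fold change at acidic pH was 0.03 for the 8 genes with the NRF-1 core and 0.03 for the 39 without it. It was -0.03 for the 9 with the ETS core and 0.04 for the 38 without, and -0.05 for the 7 with the YY1 core and 0.03 for the 40 without. It was 0.20 for the 2 with the E-box, 1 of them Ndufa7, and 0.03 for the 45 without.

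Each array gave 1 intensity per probe set, and most probe sets cover a single stretch of an exon. A gene's value is the mean of the log2 intensities of its probe sets, so levels of different genes are not compared as amounts of transcript. Genes were tested where this value exceeded the median of the array on at least 4 arrays, which kept 9387 genes and 54 of the 56. Ndufa4l2, a paralogue of Ndufa4 known to be induced by hypoxia, lay below the array median on all 16 arrays, with values between 1.5 and 2.27. Ndufaf6, an assembly factor, exceeded it on 1 array, with values between 2.12 and 3.22. Among those tested, the assembly factors Ndufaf5 and Ndufaf7 exceeded it on 5 and 8 arrays, and the other 52 on all 16. By signal, which reflects the probes as well as the transcript, 38 of the 54 lay among the brightest 20% of the genes tested. Tests were made with limma over all 9387 genes, and a gene passed at a Benjamini-Hochberg adjusted p under 0.05.

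The cells carried the markers of macrophages. Adgre1, Csf1r, Cd68, Itgam, Lyz2 and Gata6, the last a factor of resident peritoneal macrophages, exceeded the array median on all 16 arrays. At pH 6.7 against pH 7.7 over both genotypes, 14.6% of all genes tested passed as higher and 6.27% as lower. Of 17 macrophage markers tested 4 rose and 2 fell, and of 4 dendritic cell markers tested 2 rose and 1 fell. The macrophage markers were Selp (1.69), Fcgr1 (0.92), Adgre1 (0.36), Mertk (0.34), Prg4 (-0.27) and Itgam (-0.20), as log2 fold changes. Of the 18 macrophage markers with a probe set, 1 lay below the array median throughout. Col1a1, a fibroblast collagen, fell by 0.22 on the log2 scale over both genotypes, and in KO it fell by 0.38, Krt8, a mesothelial keratin, by 0.91 and Hdc, a mast cell enzyme, by 0.60. In WT the B cell marker Cd79b rose by 1.27. In WT the mean over the 9 mast cell markers ran from 2.18 to 2.84 at pH 7.7 and from 2.31 to 4.21 at pH 6.7. In KO it ran from 2.88 to 3.21 at pH 7.7 and, without overlap, from 2.30 to 2.78 at pH 6.7. The mean over the 8 dendritic cell markers with a probe set lay between 3.47 and 3.68 on the arrays at pH 7.7 and between 3.60 and 3.85 at pH 6.7, and 4 of the 8 lay below the array median throughout. No T or NK cell or eosinophil marker was bright enough to test. In RNA of a whole culture, fewer cells of a type and less RNA per cell cannot be told apart, and the part of these markers in the results below was not tested. One array stood apart: replicate 2 of WT at pH 7.7 had a median correlation with the other 15 of 0.883, against 0.907 to 0.923 for the rest.

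Over both genotypes, acidic pH left the genes of complexes I to III close to their level at pH 7.7. Of the 54 genes, 3 rose (Ndufa7, Ndufb11 and Uqcrc2, 5.56%) and 0 fell, and 51 did not pass. Of all genes tested, 20.9% passed, 14.6% higher and 6.27% lower at pH 6.7, and of the brightest 20% of genes 24.3% passed. In limma 7 of the 54 had an unadjusted p under 0.05 (13.0%, beside 34.2% of all genes). The 3 rises were between 1.17-fold and 1.18-fold. The number of calls was 5 without replicate 4 of WT at pH 7.7 or replicate 4 of WT at pH 6.7, between 2 and 4 without any other array, and 0 with the brightest probe set of each gene in place of the mean. After quantile normalization 3 rose and 1 fell (Ndufa11). Ndufa11 also passed as a fall with array weights, the filter at the 75th percentile and the intensity trend, and Ndufb7 with array weights. The median log2 fold change of the 54 was 0.03 with 37 above 0, beside 0.04 and 58.6% above 0 over all genes. Without replicate 2 of WT at pH 7.7 the median of the 54 was -0.004 with 27 above 0. Changes ran from -0.23 for Ndufs4 to 0.33 for Ndufaf2, and no gene of the 54 changed by more than 0.5, against 4.8% of all genes. The 95% interval lay within 0.5 of no change for 52 of the 54 genes and within 0.25 for 25 of them, and the farthest bound was 0.58. Their median absolute change was 0.09 beside 0.14 over all genes, and their median standard error 0.08 beside 0.09. The plot of the acid response by gene shows these values in order of role.

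**Figure D1:**
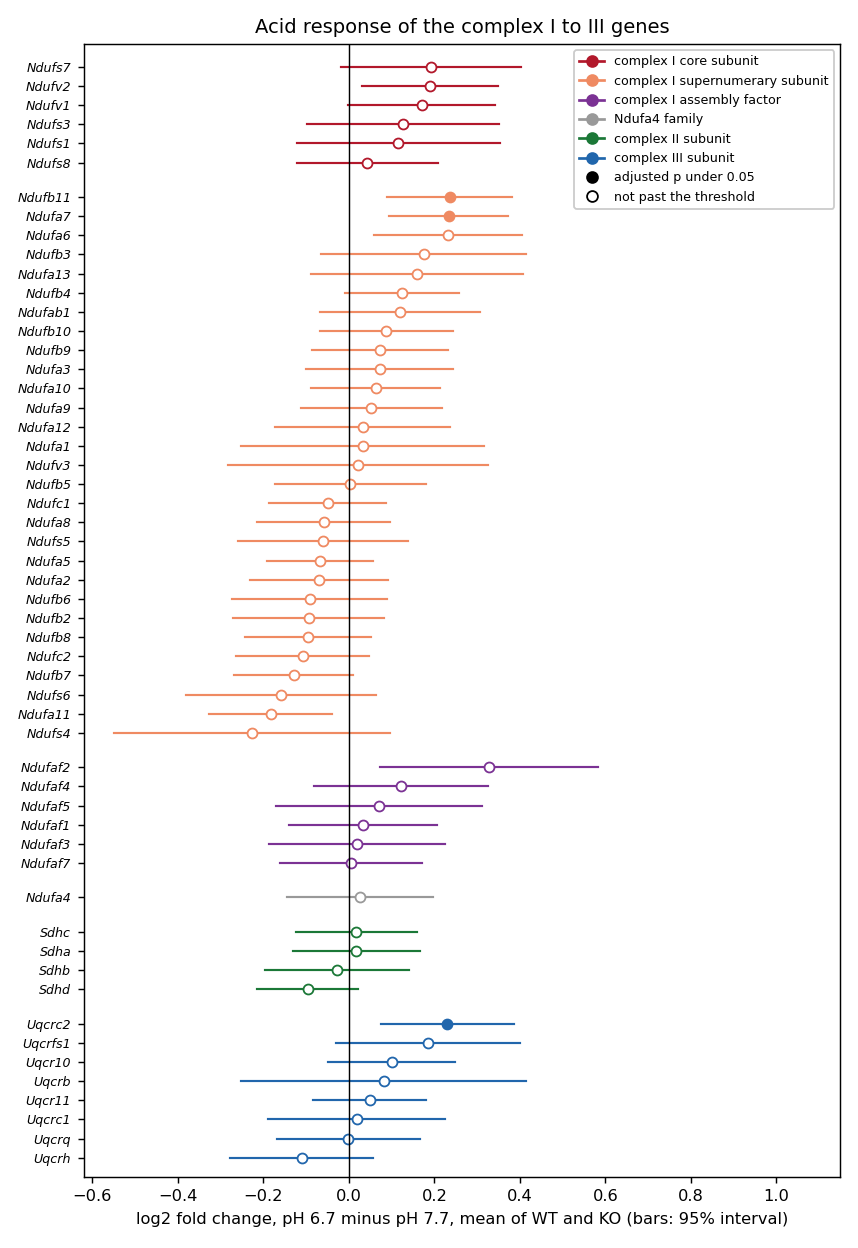
Log2 fold change at pH 6.7 against pH 7.7, mean of WT and KO (x axis), for each of the 54 genes tested (y axis), coloured by role; bars are 95% intervals of the limma fit and filled points passed an adjusted p of 0.05. The 3 filled points, Ndufb11, Ndufa7 and Uqcrc2, lie near 0.23, and 52 of the 54 bars stay within 0.5 of 0.

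Among the core subunits of complex I, which hold its flavin and iron-sulphur clusters, none of the 6 passed the limma test. An unadjusted p under 0.05 was found for 1, beside 34.2% of all genes. All 6 had estimates above 0, with a median of 0.15, beside 58.6% above 0 and a median of 0.04 over all genes. For Ndufv2, which holds an iron-sulphur cluster beside the flavin, the WT arrays read 6.12, 6.13, 6.27 and 6.4 at pH 7.7 and 6.43, 6.54, 6.66 and 6.29 at pH 6.7. The KO arrays read 6.29, 6.34, 6.18 and 6.44 at pH 7.7 and 6.41, 6.24, 6.55 and 6.56 at pH 6.7. The pH groups overlapped in both genotypes, and the change was 0.19 ± 0.08 (SE), adjusted p = 0.082. It passed without replicate 4 of WT (adjusted p = 0.0457) or replicate 2 of KO (adjusted p = 0.0495) at pH 6.7. Ndufv1, the subunit that binds NADH and the flavin, stood at 5.85 ± 0.18 (SD, n = 4) in WT and 5.84 ± 0.24 in KO at pH 7.7, and at 5.98 ± 0.05 and 6.05 ± 0.09 at pH 6.7, a change of 0.17 ± 0.08, adjusted p = 0.15. The changes of Ndufs7 and Ndufs8, which carry the clusters nearest to ubiquinone, were 0.19 ± 0.10 (adjusted p = 0.186) and 0.04 ± 0.08 (adjusted p = 0.745). Ndufs3, a core subunit with no cluster, changed by 0.13 ± 0.11 (adjusted p = 0.435), and Ndufs1, the largest subunit of the NADH arm, by 0.12 ± 0.11 (adjusted p = 0.508). None of these differences exceeded the spread between arrays at the threshold.

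Supernumerary subunits, which surround the complex I core and stabilise it, were 29 of the 54 genes tested and 2 of the 3 that rose. Of the 29, 2 rose (6.9%), 0 fell and 27 did not pass, while 20.9% of all genes passed. Estimates lay above 0 for 16 (55.2%) with a median of 0.02, beside 58.6% and 0.04 over all genes. Ndufa7, a subunit of the peripheral arm, read 6.39, 6.56, 6.70 and 6.79 in WT at pH 7.7 and 6.91, 6.79, 6.88 and 6.79 at pH 6.7. In KO it read 6.70, 6.77, 6.55 and 6.66 at pH 7.7 and 6.87, 6.85, 7.0 and 6.90 at pH 6.7. All 4 KO arrays at pH 6.7 lay above all 4 at pH 7.7, while in WT the highest array at pH 7.7 reached the lowest at pH 6.7. The change was 0.23 ± 0.07, adjusted p = 0.0186, and it was 0.23 in each genotype alone. All 4 of its probe sets were higher at pH 6.7 in both genotypes.

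Ndufb11, a small subunit of the membrane arm encoded on the X chromosome, read 7.82, 7.75, 8.0 and 8.16 in WT at pH 7.7 and 8.24, 8.09, 8.11 and 8.18 at pH 6.7. In KO it read 7.95, 7.99, 7.85 and 7.81 at pH 7.7 and 8.21, 8.01, 8.12 and 8.25 at pH 6.7. As with Ndufa7, the KO groups did not overlap and the WT groups did. The change was 0.24 ± 0.07, adjusted p = 0.0222. Both genes passed without any 1 of the 16 arrays, at adjusted p between 0.00966 and 0.0408 for Ndufa7 and between 0.00834 and 0.0481 for Ndufb11. With the brightest probe set in place of the mean the changes were 0.28 (adjusted p = 0.194) for Ndufa7 and 0.17 (adjusted p = 0.404) for Ndufb11, which ended both calls, and with the median over probe sets Ndufa7 did not pass. In WT alone and in KO alone neither passed, at adjusted p of 0.13 and 0.105 for Ndufa7 and 0.173 and 0.0983 for Ndufb11.

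The other supernumerary subunits spread to both sides of 0. Nearest to the threshold above 0 was Ndufa6, a subunit of the LYR protein family, at 0.23 ± 0.08, adjusted p = 0.0539. Its call changed with single arrays, to an adjusted p of 0.022 without replicate 4 of WT at pH 7.7, 0.0451 without replicate 2 and 0.0413 without replicate 4 of WT at pH 6.7, and 0.0207 without replicate 2 of KO at pH 7.7. Nearest below 0 was Ndufa11, a subunit of the membrane arm, at -0.18 ± 0.07, adjusted p = 0.0643. It fell past the threshold after quantile normalization (-0.21, adjusted p = 0.0232) and without replicate 4 of KO at pH 7.7 (-0.21, adjusted p = 0.0475). The same held with array weights (adjusted p = 0.0209), the filter at the 75th percentile (0.0373) and the intensity trend (0.0364). Ndufs4, whose loss in mice and humans destabilises complex I, had the lowest estimate, -0.23 ± 0.15, adjusted p = 0.32. In WT it read 6.50, 5.47, 6.43 and 6.61 at pH 7.7 and 5.70, 6.41, 6.01 and 5.98 at pH 6.7. In KO it read 6.64, 6.24, 6.39 and 6.32 at pH 7.7 and 5.85, 6.03, 6.49 and 6.31 at pH 6.7. Replicate 2 of WT at pH 7.7, the array that stood apart, was the lowest of all 16, and without it the change was -0.36 with an adjusted p of 0.0355. Ndufab1, the mitochondrial acyl carrier protein, changed by 0.12, Ndufa13, also known as GRIM-19, by 0.16, and Ndufs5, a subunit of the intermembrane space side, by -0.06, none past the threshold.

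Complex II, the succinate dehydrogenase that also serves the tricarboxylic acid cycle, showed no change past the threshold in any of its 4 subunits. In limma 0 of the 4 had an unadjusted p under 0.05, beside 34.2% of all genes. Sdha, the flavoprotein that oxidises succinate, stood at 6.73 ± 0.15 (SD, n = 4) in WT and 6.71 ± 0.11 in KO at pH 7.7 and at 6.75 ± 0.10 and 6.73 ± 0.13 at pH 6.7. Its change was 0.02 ± 0.07 with a 95% interval from -0.13 to 0.17. Sdhb, the iron-sulphur subunit, whose promoter is printed above, changed by -0.03 ± 0.08 (interval from -0.20 to 0.14). The membrane anchors Sdhc and Sdhd, which bind the haem and ubiquinone, changed by 0.02 ± 0.07 (from -0.12 to 0.16) and -0.10 ± 0.06 (from -0.21 to 0.02). A change of 0.25 or more in either direction lay outside the interval of each of these 4 genes.

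In complex III, 1 of 8 subunits rose, 0 fell and 7 did not pass, while 20.9% of all genes passed. The median was 0.07 and 6 estimates lay above 0, beside 0.04 and 58.6% over all genes. Uqcrc2, a core protein on the matrix side of the complex, read 6.43, 6.35, 6.79 and 6.59 in WT at pH 7.7 and 6.71, 6.94, 6.72 and 6.67 at pH 6.7. In KO it read 6.59, 6.58, 6.54 and 6.39 at pH 7.7 and 6.64, 6.75, 6.76 and 6.91 at pH 6.7. The KO groups did not overlap, and replicate 3 of WT at pH 7.7 lay within the WT group at pH 6.7. The change was 0.23 ± 0.07, adjusted p = 0.0337. It depended on single arrays, since the adjusted p lay between 0.0514 and 0.0735 without replicate 1 or 2 of WT at pH 7.7, replicate 2 of WT at pH 6.7, replicate 3 or 4 of KO at pH 7.7, or replicate 2, 3 or 4 of KO at pH 6.7. It also depended on the probe sets: 12 of its 16 were higher at pH 6.7 in WT and 12 in KO, 9 of them in both, and the brightest gave -0.003. Uqcrc1, the partner of Uqcrc2, changed by 0.02 ± 0.10 (adjusted p = 0.919), and Uqcrfs1, the Rieske iron-sulphur protein that passes the electron on, by 0.19 ± 0.10 (adjusted p = 0.213). Uqcrh, the hinge protein at the cytochrome c1 side, changed by -0.11 ± 0.08 (adjusted p = 0.355), and the small subunits Uqcr10, Uqcrb and Uqcr11 by 0.10, 0.08 and 0.05.

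Assembly factors are not part of the finished complexes. Of the 6 Ndufaf genes tested, 0 passed over both genotypes in limma, with 1 at an unadjusted p under 0.05 (beside 34.2% of all genes). In KO alone, 13.2% of all genes passed, and of the 6 factors 1 rose (16.7%). This was Ndufaf2, a paralogue of the subunit Ndufa12 that occupies its place during assembly in human cells. In KO, Ndufaf2 read 5.66, 5.45, 5.58 and 6.15 at pH 7.7 and 6.20, 6.16, 6.23 and 6.39 at pH 6.7, and in WT 5.53, 5.32, 6.08 and 6.06 at pH 7.7 and 5.84, 6.10, 5.83 and 5.69 at pH 6.7. The KO groups did not overlap, though replicate 4 at pH 7.7 lay just under the lowest array at pH 6.7, and the WT groups overlapped throughout. The change in KO was 0.54 ± 0.17, or 1.45-fold, with an adjusted p of 0.0467. The change in WT was 0.12 ± 0.17 (adjusted p = 0.733), and the difference between them, 0.42 ± 0.24, did not pass (adjusted p = 0.463). In KO the adjusted p lay between 0.0513 and 0.13 without replicate 1, 3 or 4 of WT at pH 6.7, replicate 1, 2 or 3 of KO at pH 7.7, or any 1 of the 4 KO arrays at pH 6.7. The call was also lost with the brightest probe set (0.43, adjusted p = 0.271), the median over probe sets (0.66, adjusted p = 0.0553) and no filter (adjusted p = 0.0735). Over both genotypes Ndufaf2 changed by 0.33 ± 0.12 (adjusted p = 0.0631), and passed without replicate 3 (0.0323) or replicate 4 (0.0365) of WT or replicate 4 of KO (0.0193) at pH 7.7. Ndufa12 itself changed by 0.03 ± 0.10.

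**Figure D2:**
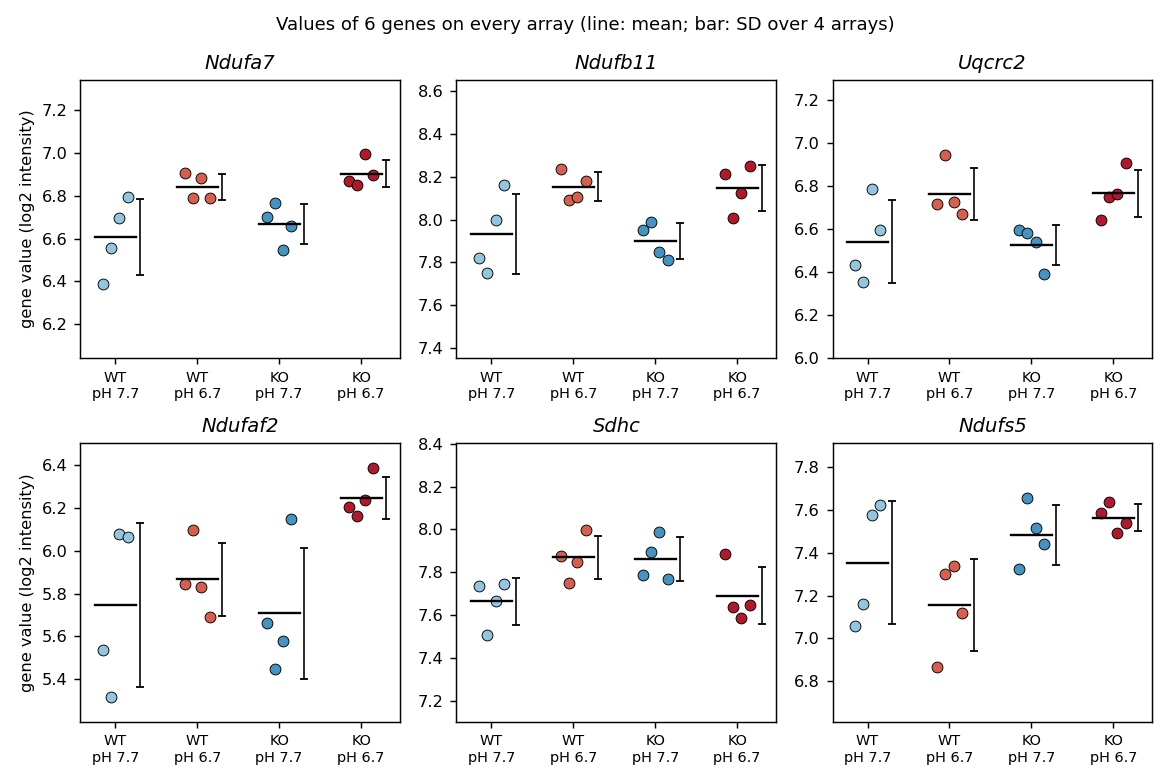
Value of 6 genes (y axis, mean log2 intensity over the probe sets of a gene) on each of the 16 arrays, in 4 groups of genotype and pH (x axis); points are arrays, lines group means and bars the SD over 4 arrays. Ndufa7, Ndufb11 and Uqcrc2 are higher at pH 6.7 in both genotypes with overlap in WT, Ndufaf2 is higher in KO without overlap and overlaps in WT, and Sdhc and Ndufs5 had the smallest p of the interaction and of KO minus WT at pH 6.7.

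Each genotype alone gave fewer calls. In WT, 9.73% of all genes passed (6.52% higher and 3.21% lower at pH 6.7) and 0 of the 54 did in limma, with 7 at an unadjusted p under 0.05 (13.0%, beside 24.5% of all genes). Quantile normalization moved the split of the WT calls over all genes from 67.0% higher to 54.4% higher, and the calls of 54 genes stayed at 0. In KO, 13.2% of all genes passed (9.65% higher and 3.55% lower) and 1 of the 54 (1.85%), Ndufaf2, with 11 at an unadjusted p under 0.05 (20.4%, beside 28.8% of all genes). With the brightest probe set the KO calls over all genes turned to more lower than higher, 390 against 205, and their number was 724 without replicate 1 at pH 7.7 and 714 without replicate 4 at pH 6.7 of KO, against 1239. Estimates above 0 numbered 36 of the 54 in KO (66.7%, beside 60.2% of all genes) and 31 in WT (57.4%, beside 55.4%). In WT this number was 17 without replicate 2 at pH 7.7 (median -0.06), 18 with array weights and 22 after quantile normalization. The ranges were -0.23 to 0.33 in WT and -0.25 to 0.54 in KO, and the ends were Ndufs4 and Uqcrfs1 in WT and Uqcrh and Ndufaf2 in KO. Uqcrh read 9.46, 9.46, 9.29 and 9.25 in KO at pH 7.7 and 9.14, 9.02, 9.05 and 9.23 at pH 6.7, without overlap, a change of -0.25 ± 0.11 (adjusted p = 0.144). In WT its values, 9.05 to 9.41 at pH 7.7 and 8.98 to 9.27 at pH 6.7, overlapped.

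**Figure D3:**
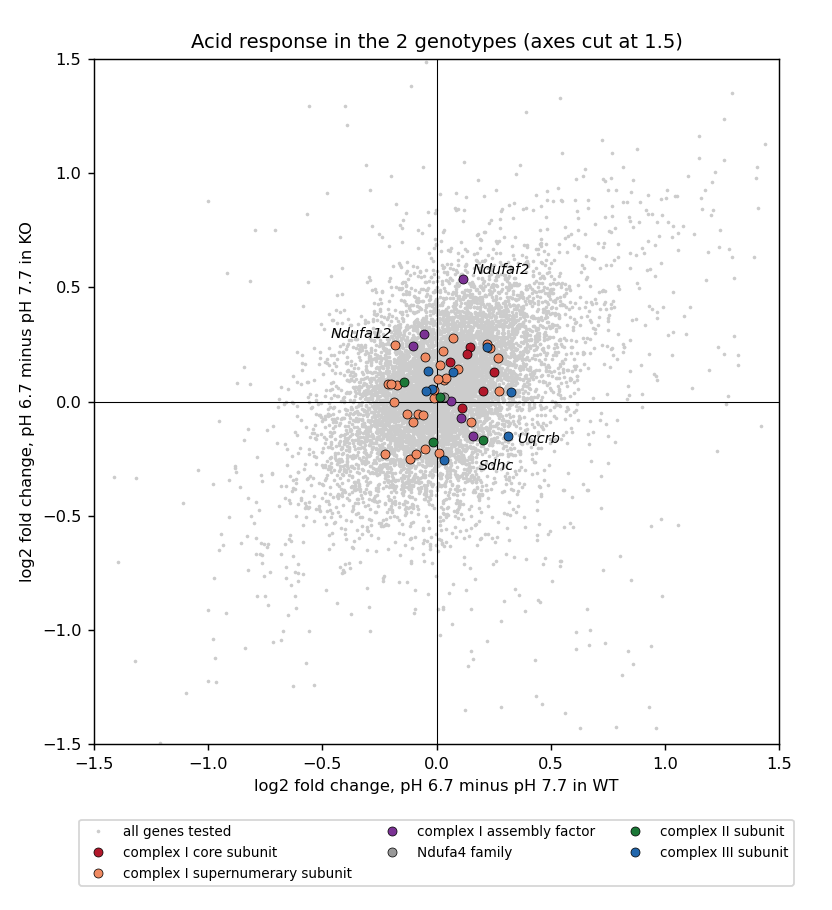
Log2 fold change at pH 6.7 against pH 7.7 in WT (x axis) and in KO (y axis) for the 9387 genes tested (grey) and the 54 genes of complexes I to III (coloured by role), with both axes cut at 1.5. The coloured points lie within the grey cloud around 0, with Ndufaf2 at 0.12 in WT and 0.54 in KO.

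The WT and KO responses come from separate arrays. In both genotypes 23 of the 54 genes were higher (42.6%) and in both 10 were lower (18.5%), 8 were higher in WT and lower in KO (14.8%), and 13 the reverse (24.1%). Over all genes these shares were 39.7%, 24.0%, 15.7% and 20.5%, and the scatter of the responses in both genotypes shows the 54 within the bulk of the genes. The difference of the responses was tested as an interaction. Of all genes 0.107% passed, 8 higher in KO and 2 lower (12 and 6 after quantile normalization, 31 and 64 with the brightest probe set), and the number was between 1 (without replicate 1 of KO at pH 7.7 or replicate 3 of KO at pH 6.7) and 24 (without replicate 1 or replicate 2 of WT at pH 7.7) without single arrays. Of the 54 none passed in limma, with 2 at an unadjusted p under 0.05 (3.7%, beside 13.3% of all genes). The 95% interval of this difference lay within 0.5 of 0 for 28 of the 54 genes and within 1 for 53.

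Sdhc, the larger membrane anchor of complex II, had the smallest p of the interaction. In WT it read 7.74, 7.51, 7.67 and 7.75 at pH 7.7 and 7.88, 7.75, 7.85 and 8.0 at pH 6.7, and in KO 7.79, 7.90, 7.99 and 7.77 at pH 7.7 and 7.89, 7.64, 7.59 and 7.65 at pH 6.7. The WT groups touched at 7.75 without overlapping, and the KO groups overlapped through 1 array at pH 6.7. The change was 0.20 ± 0.09 in WT and -0.17 ± 0.09 in KO, and their difference of -0.37 ± 0.13 had an adjusted p of 0.242. Ndufa12, a subunit added late in assembly, differed by 0.43 ± 0.19 (adjusted p = 0.348) and the methyltransferase Ndufaf7 by -0.31 ± 0.16 (adjusted p = 0.41). Uqcrb, a small subunit next to the ubiquinone site, had the farthest estimate, -0.46 ± 0.32 (adjusted p = 0.546). It rests on a single probe set, since 5 others carry several gene symbols, and its WT arrays at pH 7.7 read 6.41, 6.44, 7.36 and 7.44.

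Between genotypes no gene of the 54 passed the limma test at either pH. At pH 7.7, 0% of all genes passed, with 820 at an unadjusted p under 0.05 (8.74%), and 2 of the 54 were at an unadjusted p under 0.05 (3.7%). At pH 6.7, 0.032% of all genes passed, and 7 of the 54 were at an unadjusted p under 0.05 (13.0%, beside 12.1% of all genes). Over both pH values 0.0107% of all genes passed, and 3 of the 54 were at an unadjusted p under 0.05 (5.56%, beside 7.16%). The intervals of KO minus WT over both pH values lay within 0.5 of 0 for all 54 genes and within 0.25 for 28.

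At pH 7.7 the smallest p belonged to Ndufaf7 (0.33 ± 0.11, adjusted p = 0.458), Sdhd (0.17 ± 0.08, adjusted p = 0.54) and Sdhc (0.19 ± 0.09, adjusted p = 0.586). Ndufaf7 entered the test mainly through its KO arrays, 6 of which exceeded the array median against 2 of WT, so its estimate supports nothing here. Sdhd read between 6.03 and 6.11 in WT and between 6.12 and 6.38 in KO, and Sdhc between 7.51 and 7.75 and between 7.77 and 7.99, both without overlap. At pH 6.7 it belonged to Ndufs5 (0.41 ± 0.13, adjusted p = 0.23), Ndufaf4 (0.38 ± 0.14, adjusted p = 0.28) and Ndufb4 (0.23 ± 0.09, adjusted p = 0.324). Ndufs5 read 6.87, 7.30, 7.34 and 7.12 in WT and 7.59, 7.64, 7.49 and 7.54 in KO at pH 6.7, without overlap. At pH 7.7 it read 7.06, 7.16, 7.58 and 7.62 in WT and 7.32, 7.66, 7.52 and 7.44 in KO, with overlap. Ndufaf4, which acts with Ndufaf3 early in assembly, read between 3.96 and 4.51 in WT and between 4.52 and 4.83 in KO at pH 6.7. Ndufa13 had the lowest estimate at pH 6.7, -0.36 ± 0.17 (adjusted p = 0.4), and over both pH values, -0.25 ± 0.12 (adjusted p = 0.702).

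Most estimates of KO minus WT over both pH values lay above 0. This held for 48 of the 54 genes (88.9%), with a median of 0.08, beside 66.4% and 0.04 over all genes and 72.0% and 0.04 over the brightest 20%. The size of this shift depended on single arrays and on the processing. The median of the 54 was 0.11 with 52 above 0 without replicate 4 of WT at pH 7.7, beside 0.05 and 69.9% over all genes. It was 0.06 with 45 above 0 without replicate 1 of WT at pH 7.7 or replicate 4 of KO at pH 6.7. With array weights it was 0.04 with 40 above 0, beside 0.02 and 58.3% over all genes. Without replicate 2 of WT at pH 7.7 the median of the 54 was 0.04 with 38 above 0, beside 0.02 and 56.6% over all genes, and after quantile normalization it was 0.05 with 39 above 0, beside 0.02 and 57.0%. The mean over the 54 genes was 6.48, 6.35, 6.70 and 6.78 on the 4 WT arrays at pH 7.7. It was 6.63, 6.62, 6.6 and 6.59 on the WT arrays at pH 6.7, 6.63, 6.72, 6.58 and 6.63 on the KO arrays at pH 7.7, and 6.66, 6.62, 6.69 and 6.79 on the KO arrays at pH 6.7. At pH 7.7 the KO arrays lay inside the range of the WT arrays, which was wide because of replicates 1 and 2. At pH 6.7 KO replicates 1, 3 and 4 lay above all WT arrays, and KO replicate 2 lay among them. The group means at pH 6.7 were 6.61 in WT and 6.69 in KO, beside 7.29 and 7.33 over the brightest 20% of genes. The cause of this difference was not tested.

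**Figure D4:**
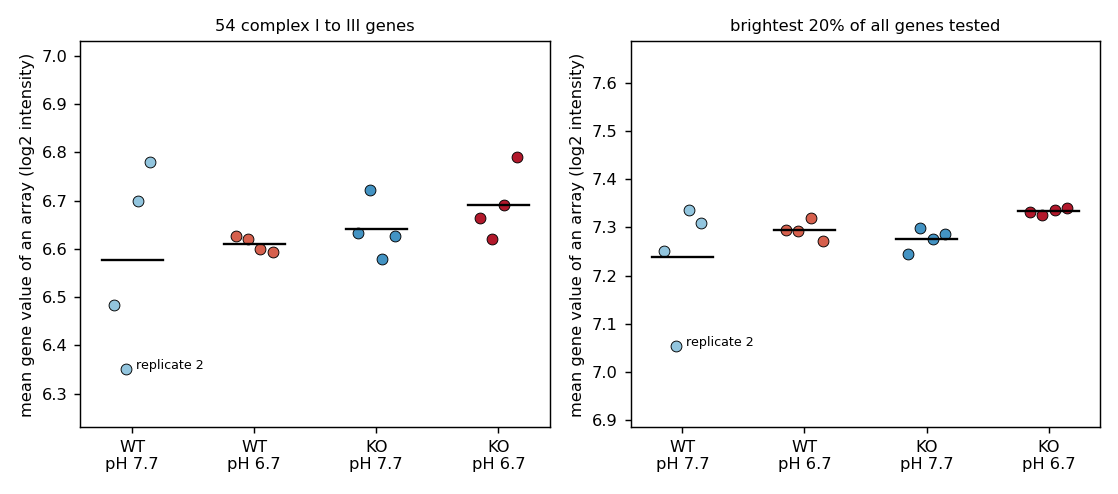
Mean gene value of each array (y axis, log2 intensity) over the 54 genes tested (left) and over the brightest 20% of all genes tested (right), by genotype and pH (x axis); points are arrays and lines group means. Replicates 1 and 2 of WT at pH 7.7 are low on the left, at 6.48 and 6.35, and replicate 2, at 7.06, is low on the right.

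The spread itself differed between groups. The SD of the mean over the 54 genes was 0.20 in WT at pH 7.7, 0.02 in WT at pH 6.7, 0.06 in KO at pH 7.7 and 0.07 in KO at pH 6.7. The median SD of single genes was 0.21, 0.12, 0.11 and 0.11 in these groups for the 54, and 0.20, 0.17, 0.16 and 0.14 for all genes. For 25 of the 54 genes the lowest of the 16 arrays was replicate 2 of WT at pH 7.7 and for 9 replicate 1, while for 0 it was replicate 3 or 4. Over all genes replicate 2 was lowest for 27.6% and replicate 1 for 8.55%. The plot of array means shows that the brightest 20% of genes were also lowest on replicate 2 (7.06, against 7.25, 7.34 and 7.31 on replicates 1, 3 and 4).

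Single probe sets moved further than the gene values. Of the 342 probe sets, 181 were higher at pH 6.7 in WT and 200 in KO, 107 in both, and 68 were lower in both. The change exceeded 1 in either direction for 5 probe sets in WT and 7 in KO. A probe set of Ndufaf7 gave 1.84 in WT and -1.84 in KO at a mean level of 2.75, below the median of every array (3.03 to 3.11), and a probe set of Ndufaf2 gave -0.05 in WT and 1.06 in KO. A probe set of Ndufa12 gave -0.37 in WT and 1.05 in KO. None of these 3 genes passed the test of the difference between genotypes.

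The remaining genes of mitochondrial electron transport and its supply were followed in lists. The plot of shares by list sets them beside the 54 genes and the 20.9% of all genes that passed over both genotypes. Complex IV, which passes electrons from cytochrome c to oxygen, had 1 of 13 genes past the threshold (7.69%), Cox6a2, a form of a subunit known from striated muscle, which rose by 1.53 ± 0.24 (adjusted p = 0.000332). ATP synthase had 1 of 16 (6.25%), Atp5g1, a subunit of the rotating ring, which fell by 0.31 on the log2 scale (adjusted p = 0.013). In KO 3 of its 16 fell, Atp5g1 by 0.55, Atp5g3 by 0.34 and Atp5j2 by 0.30, and in WT Atp5j rose by 0.64. Of 7 mitochondrially encoded subunits with a probe set none passed over both genotypes in limma (1 at an unadjusted p under 0.05, beside 34.2% of all genes). In WT ND4L, a complex I subunit, fell by 0.37. All 7 estimates lay below 0 in WT (median -0.14) and 6 above 0 in KO (median 0.13). The differences of the responses, KO minus WT, were all above 0 (median 0.29). In limma 3 of them had an unadjusted p under 0.05, beside 13.3% of all genes, and 0 passed the threshold. Cytochrome c1 and cytochrome c did not pass, with 0 of 2 at an unadjusted p under 0.05.

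Proteins that build the complexes moved both ways. Of 20 other assembly factors of complexes I to III tested, 2 rose and 2 fell (20%). Foxred1, a complex I assembly factor, rose by 0.45 ± 0.11 (adjusted p = 0.00684), Ecsit, which serves both complex I assembly and Toll-like receptor signalling, by 0.38 ± 0.08 (adjusted p = 0.00479), and Tmem126a fell by 0.41 (adjusted p = 0.00988). Iron-sulphur cluster assembly had 3 rises and 0 falls in 10 (30.0%): Hscb, a co-chaperone, at 0.93 ± 0.13, its partner Hspa9 at 0.38 ± 0.10, and the scaffold Iscu at 0.30 ± 0.10. Ubiquinone synthesis and handling had 3 rises and 0 falls in 10 (30.0%), Coq3 at 0.36, Coq10b at 0.33 and Coq10a at 0.23. Mitochondrial import had 3 rises and 1 fall in 21 (19.0%), with Timm17b at 0.49 and Tomm20 at 0.39, and the mitochondrial ribosome 6 rises and 2 falls in 77 (10.4%).

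Enzymes that feed electrons to ubiquinone without complex I or II, and carriers listed with them, had 4 rises and 0 falls in 7 (57.1%), with a median of 0.30. Etfb, a subunit of the electron transfer flavoprotein of fatty acid oxidation, rose by 0.59 ± 0.10 (adjusted p = 0.000703), the uncoupling protein Ucp2 by 0.44 ± 0.08 (adjusted p = 0.000804), and the sulphide oxidase Sqor by 0.40 ± 0.09 (adjusted p = 0.00447). In the tricarboxylic acid cycle 2 of 13 rose and 0 fell (15.4%), Idh2 by 0.32 ± 0.07 and Idh3b by 0.28 ± 0.08. Of 9 antioxidant enzymes of mitochondria 2 rose and 1 fell (33.3%), with the peroxiredoxin Prdx3 at 0.39 ± 0.08 and the transhydrogenase Nnt at -0.42 ± 0.09. Of 12 regulators of mitochondrial biogenesis 1 fell (8.33%), the coactivator Ppargc1b, by 0.38 on the log2 scale (adjusted p = 0.00143), and in WT alone Tfam, which packages mitochondrial DNA, also fell, by 0.59. No gene of these 13 lists passed between genotypes over both pH values in limma, where 0.0107% of all genes did. In limma an unadjusted p under 0.05 was found for 22 of their genes, a larger share of those tested than the 7.16% of all genes. This difference in share was not tested. The number of genes tested is given with each list. These lists hold few genes each and were chosen with earlier results of these data known. Their shares are therefore given as a description only.

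**Figure D5:**
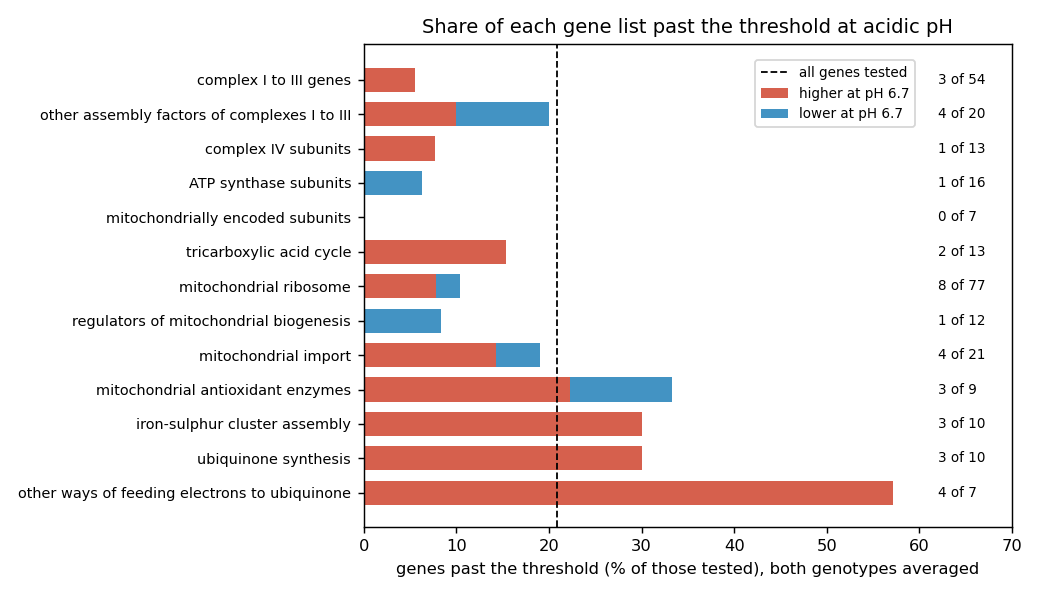
Share of each gene list past an adjusted p of 0.05 at pH 6.7 against pH 7.7 over both genotypes (x axis, % of the genes tested), split into higher (red) and lower (blue), with the count at the right and the share of all genes, 20.9%, as a dashed line. The genes of complexes I to III, at 3 of 54, lie left of the line. The list of other ways of feeding electrons to ubiquinone, at 4 of 7, lies right of it. Those 4 include the uncoupling protein Ucp2, a carrier listed with the enzymes. The lists were chosen with earlier results of these data known, so the shares are a description only.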

How the data were processed

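RNA of the 16 samples was hybridised to Affymetrix arrays, with labelled cRNA made from total RNA per the labels' protocols. The authors computed the deposited intensity of each probe set with RMA (R 2.15.2), as the submitters' processing notes state, and gave it untransformed, with values from 0.88 to 5510. RMA subtracts background, equalises arrays and sums up probes, which narrows differences between arrays. Every one of the 16 columns has a labelled sample, and 0 arrays were identical.

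Intensities were turned to log2 and averaged per gene. The platform annotation gives 1 gene symbol to 213361 of 241576 probe sets, several to 5107 and none listed to 23108. Of 20893 symbols, 18496 were current in the RefSeq table (GRCm38.p6), 2354 were updated and 43 kept, giving 20848 genes. Ndufaf5, Ndufaf6 and Ndufaf7 joined the set through updated symbols.

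The 9387 genes tested entered limma 3.58.1 under R 4.3.3 (lmFit on 4 group means, then eBayes), and 2-sided p-values were adjusted by Benjamini-Hochberg in each of 7 comparisons. Fold changes carry the standard error of this fit, and levels the SD of 4 arrays, whose number limits the precision. Detection calls were not used. No batch is named in the labels. The fit was checked on simulated data.

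The members and the gene lists were chosen with earlier results of these data known. Named genes were the catalytic subunits, those past the threshold in a comparison or, with none, the 3 smallest p, and those farthest from the rest; of other lists, up to 3 past the threshold. Ndufa11, Uqcr10, Uqcr11, Ndufab1 and the genes with single probe sets described were added after their values were seen. Alternatives were the brightest probe set or the median over probe sets, other filters, centring, quantile normalization, an intensity trend, array weights, a replicate block, fits of only the arrays compared, and leaving out each array.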

Additional observations from a re-analysis of the deposited data

Results flagged for a closer look

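In 5 of the 112 groups of 4 arrays checked, 1 array lay far from the other 3, as judged by its gap to the nearest over the range of the group; chance alone gives about 1 in 20. Ndufs4 in WT at pH 7.7 read 5.468 on replicate 2 and between 6.435 and 6.608 on the others. Ndufa6 in WT at pH 7.7 read 6.585 on replicate 4 and between 6.21 and 6.257 on the others. In WT at pH 6.7, Ndufs3 read 6.674 on replicate 1 against 6.314 to 6.368, and Sdhb read 6.736 on replicate 4 against 6.826 to 6.836. Uqcrb in KO at pH 6.7 read 6.943 on replicate 2 against 7.146 to 7.184. The effect of leaving out these arrays on Ndufs4 and Ndufa6 is given with their results, and the cause of the 5 values was not tested.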

How the results depend on the processing

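Of 4633 values of the 27 named genes under 26 other settings, 4503 kept their side of the threshold or moved by less than the spread between arrays, 27 lost a call, 15 gained one and 87 moved further without a call; 329 uncalled values changed sign. One called value reversed, Uqcrc2 over both genotypes with the brightest probe set (-0.0027). Over both genotypes the calls among the 54 genes numbered 3, against 0 with the brightest probe set, 6 with the filter at the 75th percentile, 6 with the intensity trend, 5 with array weights, and 2 to 5 without single arrays. In KO they numbered 1, against 0 with the brightest probe set, 2 with array weights and 0 to 1 without single arrays, and the call of Ndufaf2 was also lost with the median over probe sets and with no filter. Calls that other settings added over both genotypes were Ndufa6, Ndufa11, Ndufaf2 and Ndufb7, and without single arrays also Ndufs4 and Ndufv2; in KO they were Ndufa11, Ndufab1 and, without a filter, Ndufaf6. In the other 5 comparisons the count stayed at 0 in every setting run. Counts over all genes moved most with the brightest probe set: WT 189 against 913, KO 595 against 1239, both genotypes 560 against 1959, the interaction 95 against 10 and KO minus WT at pH 6.7 72 against 3. With the median over probe sets they were 480, 656, 1239, 3 and 0, with the 75th percentile filter 814 in KO, 1291 over both genotypes and 0 at pH 6.7, with array weights 1876 in KO, 44 in the interaction and 33 at pH 6.7, with quantile normalization 18 in the interaction, and with only the arrays compared 417 in WT and 0 at pH 6.7. Without a filter 5 passed at pH 6.7. The intensity trend gave 1 at pH 7.7. The brightest probe set also moved the split over both genotypes, to 283 higher and 277 lower from 1370 and 589. Without single arrays KO minus WT gave 0 to 3 at pH 7.7 and 0 to 5 at pH 6.7. KO minus WT over both pH values gave 1, against 2 with the brightest probe set and 0 with the median, no filter or the 75th percentile.

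The replicate numbers did not pair the arrays: of 24 same-numbered pairs 5 had a correlation of deviations over 0.1 (range -0.31 to 0.29), and 4 correlated best with their own number. With the replicate block the calls among the 54 were 1 in KO, 2 over both genotypes (Uqcrc2 did not pass) and 0 elsewhere, and over all genes 20 in the interaction and 0 in KO minus WT at pH 6.7. No distance from background was available, so how far dim probe sets limit the values was not tested; the cause of the changes with the settings was not tested.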
